A study of Homo sapiens with 3 samples.

Results

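The fibroblast growth factor (FGF) pathway was examined in RNA-seq libraries of HCT116, an established human colorectal carcinoma line. The gene set comprised 50 protein-coding genes of the 58735 genes in the count table, of which 19951 are protein-coding. It was defined by gene symbol and not by a limit on expression, although earlier results of these data were known when it was chosen. It holds every numbered FGF gene, the receptors *FGFR1* to *FGFR4* and *FGFRL1*, and the sprouty genes *SPRY1* to *SPRY4*. The 19 further genes bind FGFs or their receptors, or act as feedback inhibitors or transcriptional outputs of ERK. By role these are 22 ligand genes, 5 receptors, 5 co-receptors, carriers or modulators, 11 feedback inhibitors, 3 ETS transcription factors and 4 other ERK-induced genes. The ligand role was assigned by symbol, so all counts and medians of ligand genes include *FGF11* to *FGF14*, whose products are not secreted. Of the 50 genes, 45 reached 10 counts over the 3 libraries and were compared, and 5 ligand genes did not.

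The study asked which genes TCF7L1, a DNA-binding repressor of the Wnt pathway, regulates directly or indirectly. It used 3 stable, puromycin-selected HCT116 lines made with a lentiviral, doxycycline (Dox)-inducible plasmid that was empty (vector) or encoded TCF7L1 or TCF7L1-MUT, a form with substitutions in its HMG box that impair DNA binding. In all 3, endogenous TCF7L1 was depleted with the hairpin shTCF7L1-2, to which the encoded transcripts were resistant, and Dox was given at 1 µg/ml for 18 h, so the vector cells are TCF7L1-depleted and Dox-treated as well. Each condition had 1 library. No difference given here therefore has a replicate check, and each comparison is one of libraries and not of conditions. The paper lists a lower RNA integrity number for the vector library than for the TCF7L1 and TCF7L1-MUT libraries, which were alike. Any effect of RNA integrity cannot be told apart from differences that the TCF7L1 and TCF7L1-MUT libraries share. The total counts were 24190426 for vector, 17466191 for TCF7L1 and 20328324 for TCF7L1-MUT, so raw counts of the TCF7L1 library are lower at equal abundance. Log2 fold changes were therefore computed after TMM scaling, and each is given with an exact (Clopper-Pearson) 95% interval that covers counting error only. A gene was called higher or lower where the fold change exceeded 2-fold and the interval excluded 0. Levels are given as FPKM, which divides counts by gene length and library size and is the scale on which genes are compared with each other.

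*TCF7L1* RNA itself had 496 counts with vector, 10723 with TCF7L1 and 2529 with TCF7L1-MUT. Relative to vector, its log2 fold change was 4.99 with TCF7L1 and 2.69 with TCF7L1-MUT, and the direct log2 difference between the constructs was 2.30, with more RNA for TCF7L1. Effects of the mutation and of this difference in level cannot be told apart. Of 18 colorectal epithelial markers, 9 were at 1 FPKM or more in each library, among them *EPCAM*, *KRT8*, *KRT18* and *KRT19*, whereas *CEACAM5* and *CEACAM6* were at 0 counts in all libraries. The summed level of these markers was 200.1 FPKM with vector, 328.5 with TCF7L1 and 300.4 with TCF7L1-MUT, while their median was 2.767, 2.019 and 2.147 FPKM. *EPCAM* and the keratins were higher with TCF7L1 than with vector, but the epithelial cadherin *CDH1* (log2 fold change -0.53, 95% interval -0.71 to -0.35) and the intestinal factor *CDX2* (-0.58, -0.74 to -0.42) were lower. A list of 10 HEK293-like genes (embryonic kidney and neuronal genes such as *IRS4* and *NEFM*) summed to 277.5 FPKM with vector, 64.93 with TCF7L1 and 98.04 with TCF7L1-MUT, and 8 fibroblast-like genes summed to 23.76, 15.09 and 17.87 FPKM. Relative to vector, 8 of the 10 HEK293-like genes were called lower with TCF7L1 and 4 with TCF7L1-MUT, against 10.5% and 6.42% of all genes compared. *PAX2* was higher with TCF7L1 (0.37, 0.17 to 0.58), and *INA* and *LHX1* were lowest with TCF7L1-MUT. The sums rest largely on single genes, as *IRS4* had 209.1 FPKM and *COL1A1* 16.1 FPKM with vector. The summed levels of these lists order the libraries as many of the lower and higher FGF pathway genes do, and their part in the results was not tested. In bulk RNA, fewer cells of a type and less RNA per cell cannot be told apart.

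Most FGFs are secreted ligands that bind FGF receptor tyrosine kinases together with heparan sulfate. The hormone-like *FGF19*, *FGF21* and *FGF23* bind them with a klotho co-receptor. The activated receptor signals through *FRS2*, RAS, RAF and MEK to the kinase ERK. ERK activity in turn induces ETS factors of the *ETV4* and *ETV5* type and a set of inhibitors (sprouty and SPRED proteins, *IL17RD* and the phosphatases *DUSP4*, *DUSP5* and *DUSP6*) that damp the same cascade, so that these genes are widely used as transcriptional readouts of ERK. In the intestine, *FGF19* is a hormone released by enterocytes of the ileum, and *FGF18* and *FGF20* have been described as Wnt targets in colorectal tumours.

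TCF proteins bind DNA near the letters CTTTGAA or CTTTGAT. RefSeq promoters (GRCh38.p14, 250 bases before to 50 bases after a transcription start) were found for 36 of the 50 genes, which had 70 starts. Searched on both strands, CTTTGAA was present in 2 of these 70 promoters (2.86%), of *FLRT2* and *SPRY2*, against 4.43% of all 35116 promoters. CTTTGAT was present in 4 of 70 (5.71%), of *FGF18*, *FGFRL1*, *IL17RD* and *KLB*, against 2.62% of all promoters. The ETS letters CCGGAAG were present in 1 of 70 (1.43%), of *SPRY1*, against 10.3% of all. A match is a description of the letters in these windows and not a binding site. For a gene with several starts, a start with a match is shown where there was one. Whether matches go with a direction of difference was not tested. Given here are the promoters of *FLRT2*, the modulator that was lowest relative to vector with TCF7L1, of *SPRY2* and *SPRY4*, which lay on opposite sides of vector, and of *FGF18*, a ligand that was higher in both libraries. Capitals mark the TCF letters, which read TTCAAAG where the match is on the reverse strand, and each sequence runs 5′ to 3′ on the strand of its gene.
FLRT2 (chr14:85531142-85531441, plus strand): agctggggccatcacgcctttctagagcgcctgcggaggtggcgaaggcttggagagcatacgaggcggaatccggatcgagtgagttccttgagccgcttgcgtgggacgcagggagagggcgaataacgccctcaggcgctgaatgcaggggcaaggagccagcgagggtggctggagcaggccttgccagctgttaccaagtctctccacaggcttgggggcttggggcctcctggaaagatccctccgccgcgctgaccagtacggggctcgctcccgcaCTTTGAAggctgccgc
SPRY2 (chr13:80339610-80339909, minus strand): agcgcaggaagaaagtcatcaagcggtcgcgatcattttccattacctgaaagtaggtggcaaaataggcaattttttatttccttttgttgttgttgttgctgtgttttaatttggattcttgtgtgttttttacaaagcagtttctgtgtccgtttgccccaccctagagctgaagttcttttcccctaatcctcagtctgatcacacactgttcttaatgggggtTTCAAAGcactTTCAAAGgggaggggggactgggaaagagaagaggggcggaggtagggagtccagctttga
FGF18 (chr5:171419397-171419696, plus strand): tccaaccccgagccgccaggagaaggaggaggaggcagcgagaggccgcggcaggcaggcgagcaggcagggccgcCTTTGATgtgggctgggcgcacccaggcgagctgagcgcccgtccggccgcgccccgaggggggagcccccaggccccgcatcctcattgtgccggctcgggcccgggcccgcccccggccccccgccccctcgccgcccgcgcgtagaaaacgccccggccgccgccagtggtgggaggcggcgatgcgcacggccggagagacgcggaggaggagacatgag
SPRY4 (chr5:142324198-142324497, minus strand): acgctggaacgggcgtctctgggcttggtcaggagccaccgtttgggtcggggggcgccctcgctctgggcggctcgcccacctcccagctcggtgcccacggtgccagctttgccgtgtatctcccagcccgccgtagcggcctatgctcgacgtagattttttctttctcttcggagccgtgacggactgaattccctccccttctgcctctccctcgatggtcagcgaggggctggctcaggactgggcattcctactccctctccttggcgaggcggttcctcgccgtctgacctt
In *FLRT2* the match begins 34 bases after the start, in 1 of 3 annotated starts. *SPRY2* holds 2 copies on the reverse strand, the first beginning 22 bases before the start, also in 1 of 3 starts. In *FGF18* the match begins 174 bases before its start. The *SPRY4* window holds none of the 3 letter strings.

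Relative to vector, 6 of the 45 genes were called lower in the TCF7L1 library (*FGF5*, *FGF12*, *FGF23*, *FGFBP3*, *FLRT2* and *FLRT3*) and 4 were called higher (*FGF11*, *FGF13*, *ETV4* and *FOSL1*). Of all 22902 genes compared, 10.5% were called lower and 3.66% higher, so the count of lower genes is near its background and the count of higher genes rests on 4 genes. In the TCF7L1-MUT library, 2 genes were called lower (*FGF12* and *FGF23*) and 2 were called higher (*FGF10* and *FGF13*), with 6.42% and 2.82% of all genes. Between the TCF7L1 and TCF7L1-MUT libraries, 5 genes were lower with TCF7L1 (*FGF10*, *FGF12*, *FGFBP3*, *FLRT2* and *FLRT3*) and 1 was higher (*FGF11*), with 4.5% and 1.98% of all genes. *FGF10* had 0, 3 and 15 counts with vector, TCF7L1 and TCF7L1-MUT. It passed the filter of 10 counts only through the TCF7L1-MUT library, so its calls at any limit are not independent of that filter. The comparisons with vector share the vector library, so their values stand side by side and are not independent of each other. The study paired a 4-fold limit with an edgeR adjusted p-value below 0.05. Only its fold limit was used here, with the counting interval in place of the p-value. The genes past it therefore need not be genes that the study called. At this 4-fold limit, *FGF12* and *FGF23* were lower and *FGF13* was higher with TCF7L1 (3.94% and 0.847% of all genes). With TCF7L1-MUT, 0 genes were lower and *FGF10* was higher (1.77% and 0.838% of all genes). Between the constructs 0 genes passed the 4-fold limit (1.72% of all genes lower and 0.891% higher with TCF7L1). Over the 45 genes, the median log2 fold change was 0.19 with TCF7L1 and 0.10 with TCF7L1-MUT, against -0.02 and -0.01 over all genes compared.

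The differences of most well-covered members were smaller than 2-fold and yet larger than their counting error. With TCF7L1, the interval excluded 0 on the lower side for 15 genes and on the higher side for 19 genes of 45, against 26% and 26.9% of all genes. With TCF7L1-MUT these were 10 and 16 genes, against 23.7% and 24.9%, and between the constructs 11 and 11 genes, against 18.4% and 17.7%. Because an interval narrows with depth, members with at least 1000 counts were set beside all 9678 genes of that depth, a limit chosen after the values were seen. Of 22 such members, 15 (68.2%) were higher and 7 (31.8%) lower with TCF7L1 by this criterion, against 47% and 29.2% of the deep genes, and 13 (59.1%) and 6 (27.3%) with TCF7L1-MUT, against 43.3% and 28.3%. Between the constructs, 9 (40.9%) were higher and 4 (18.2%) lower with TCF7L1, against 30.4% and 25.4%. Their median log2 fold change was 0.59 with TCF7L1 and 0.37 with TCF7L1-MUT, against 0.09 and 0.07 for the deep genes. With TCF7L1, 12 of the 22 lay above the 90th percentile of the deep genes, a log2 fold change of 0.53. These were *DUSP4*, *DUSP5*, *DUSP6*, *ETV1*, *ETV4*, *ETV5*, *FGF19*, *FOSL1*, *IER3*, *PHLDA1*, *SPRED2* and *SPRY4*. *FGFR2*, *FGFR3* and *SPRY2* lay below the 10th percentile, -0.50. With TCF7L1-MUT, 10 of the same 12 genes lay above the 90th percentile (0.45), the exceptions being *SPRED2* and *SPRY4*, and *FGFR2*, *FGFR3*, *FGFRL1* and *SPRY2* lay below the 10th (-0.40).

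Among the receptors, *FGFR2* and *FGFR3* were lower than vector in both libraries with TCF7L1 constructs, and *FGFR4* was not. *FGFR3* (4:1793293-1808872, plus strand), a receptor tyrosine kinase and the FGFR gene with the highest vector level, had 4566 counts (37.28 FPKM) with vector, 1665 (19.94 FPKM) with TCF7L1 and 2305 (23.64 FPKM) with TCF7L1-MUT. It was lower than vector, at a log2 fold change of -0.90 (95% interval -0.98 to -0.82) with TCF7L1 and -0.64 (-0.71 to -0.57) with TCF7L1-MUT. *FGFR2* (10:121478334-121598458, minus strand), whose splice forms mark epithelial and mesenchymal cells, had 1130, 403 and 576 counts with vector, TCF7L1 and TCF7L1-MUT, for a log2 fold change of -0.93 (-1.10 to -0.76) and -0.63 (-0.77 to -0.48). Both were thus highest in vector and lowest with TCF7L1, and in the direct comparison *FGFR2* differed by -0.30 (-0.49 to -0.12) and *FGFR3* by -0.26 (-0.35 to -0.17). Neither reached the 2-fold limit.

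*FGFR1*, the receptor most often found in mesenchymal cells, had 3118 counts with vector, 1627 with TCF7L1 and 2292 with TCF7L1-MUT. It was lower by a smaller amount, with a log2 fold change of -0.38 (-0.47 to -0.29) and -0.10 (-0.18 to -0.02). *FGFR4*, the principal receptor for *FGF19*, had 2005, 1554 and 1679 counts, for a log2 fold change of 0.19 (0.09 to 0.29) with TCF7L1 and 0.09 (-0.00 to 0.18) with TCF7L1-MUT. *FGFRL1*, which binds FGFs but has no kinase domain, had 3331, 1765 and 1718 counts, and it was the only one of the 45 genes ordered vector, TCF7L1, TCF7L1-MUT from high to low. It stood at a log2 fold change of -0.36 (-0.44 to -0.28) with TCF7L1 and -0.61 (-0.69 to -0.53) with TCF7L1-MUT. The summed level of *FGFR1* to *FGFR4* was 68.53 FPKM with vector, 48.54 with TCF7L1 and 52.95 with TCF7L1-MUT. *FGFR3* made up 54.4% of that sum with vector, 41.1% with TCF7L1 and 44.7% with TCF7L1-MUT, and *FGFR4* made up 24%, 38.5% and 32.7%.

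**Figure D1:**
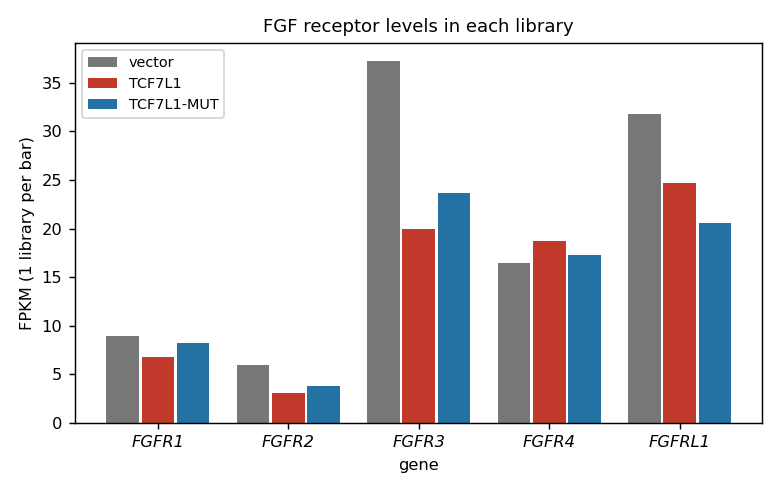
FPKM of the 5 FGF receptor genes, with 1 bar per library (vector, TCF7L1, TCF7L1-MUT) and no error bar because each condition has 1 library. *FGFR3* stands at 37.28 FPKM with vector against 19.94 with TCF7L1 and 23.64 with TCF7L1-MUT, whereas *FGFR4* lies between 16.43 and 18.69 FPKM in all 3.

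Of the 5 co-receptors, carriers and modulators, 3 were called lower with TCF7L1 than with either vector or TCF7L1-MUT, calls that 10.5% and 4.5% of all genes received in the respective comparison. *FLRT2* (14:85530144-85654426, plus strand), a leucine-rich repeat membrane protein of an FGF receptor-binding family, had 184 counts with vector, 41 with TCF7L1 and 110 with TCF7L1-MUT. The log2 fold change was -1.60 (-2.13 to -1.11) with TCF7L1 and -0.40 (-0.75 to -0.05) with TCF7L1-MUT, and -1.20 (-1.77 to -0.68) between the 2 constructs. *FLRT3* (20:14322988-14337616, minus strand), a relative that promotes FGF signaling in embryos, had 97, 29 and 69 counts, for a log2 fold change of -1.17 (-1.84 to -0.57) and -0.14 (-0.61 to 0.31), and of -1.03 (-1.72 to -0.39) between constructs. *FGFBP3* (10:91906589-91909483, minus strand), a secreted carrier that releases FGFs from the matrix, had 201, 58 and 152 counts. It differed from vector by a log2 fold change of -1.23 (-1.68 to -0.81) with TCF7L1 and -0.06 (-0.37 to 0.25) with TCF7L1-MUT, and -1.17 (-1.64 to -0.73) between constructs.

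*FLRT1* differed from its relatives, with 23 counts with vector, 30 with TCF7L1 and 20 with TCF7L1-MUT and a log2 fold change of 0.92 (0.11 to 1.79) and 0.14 (-0.80 to 1.07). *KLB*, the klotho co-receptor through which *FGF19* acts on *FGFR4*, was low in all libraries, with 43, 20 and 24 counts, and both its intervals included 0 (-1.39 to 0.25 and -1.28 to 0.26). *FGFBP3* was the sole gene of the 5 at 1 FPKM or more, at 3.126 FPKM with vector, 1.323 with TCF7L1 and 2.97 with TCF7L1-MUT.

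The sprouty genes did not lie on 1 side of vector. *SPRY2* (13:80335976-80340951, minus strand), whose product blocks signaling from receptor to RAS, had 773 counts with vector, 270 with TCF7L1 and 390 with TCF7L1-MUT, a log2 fold change of -0.96 (-1.17 to -0.76) and -0.64 (-0.82 to -0.46). *SPRY4* (5:142310427-142326455, minus strand), an inhibitor of the same family, had 3040, 3451 and 3110 counts, a log2 fold change of 0.74 (0.67 to 0.81) and 0.38 (0.31 to 0.45). The order of the libraries was thus vector, TCF7L1-MUT, TCF7L1 for *SPRY2* and the reverse for *SPRY4*, and in the direct comparison the genes differed by -0.32 (-0.55 to -0.09) and 0.36 (0.29 to 0.43). *SPRY4* stood at 18.33, 30.52 and 23.56 FPKM and *SPRY2* at 10.07, 5.161 and 6.384 FPKM. *SPRY1* had 217, 102 and 176 counts, with a log2 fold change of -0.53 (-0.89 to -0.19) with TCF7L1 and 0.04 (-0.25 to 0.34) with TCF7L1-MUT. *SPRY3* had 165, 75 and 115 counts, with -0.58 (-0.99 to -0.18) and -0.17 (-0.53 to 0.18).

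The related SPRED proteins, which restrain RAS through neurofibromin, lay above vector or had intervals that included 0. *SPRED1* had 639, 568 and 520 counts, for a log2 fold change of 0.39 (0.22 to 0.55) with TCF7L1 and 0.05 (-0.12 to 0.22) with TCF7L1-MUT. *SPRED2* had 1226, 1224 and 1240 counts, for 0.55 (0.44 to 0.67) and 0.36 (0.25 to 0.48). *SPRED3* had 195, 162 and 164 counts, for 0.29 (-0.02 to 0.60) and 0.10 (-0.21 to 0.40). *IL17RD*, a transmembrane inhibitor of FGF signaling, had 745, 424 and 554 counts and was slightly lower with TCF7L1, at -0.26 (-0.43 to -0.08), with an interval of -0.24 to 0.08 with TCF7L1-MUT.

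The dual-specificity phosphatases of the gene set, *DUSP4*, *DUSP5* and *DUSP6*, were higher than vector in both libraries, each by less than 2-fold. *DUSP5*, a nuclear phosphatase of ERK and the member with the highest vector level, had 3439 counts with vector, 3993 with TCF7L1 and 4612 with TCF7L1-MUT, or 52.05, 88.67 and 87.71 FPKM. The log2 fold changes were 0.77 (0.71 to 0.84) with TCF7L1 and 0.77 (0.70 to 0.83) with TCF7L1-MUT, and the interval between the constructs ran from -0.06 to 0.07. *DUSP6*, the cytoplasmic ERK phosphatase, had 2380, 2609 and 3176 counts, with 0.69 (0.61 to 0.77) and 0.76 (0.68 to 0.84). *DUSP4*, a nuclear phosphatase of ERK and other MAP kinases, had 2312, 2429 and 2551 counts, with 0.63 (0.55 to 0.71) and 0.49 (0.41 to 0.57). The *DUSP6* exons share 28.6% of their bases with an unnamed gene on the opposite strand, which had at most 17 counts in a library, and the strand setting of the counting is not given in the sources used here.

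**Figure D2:**
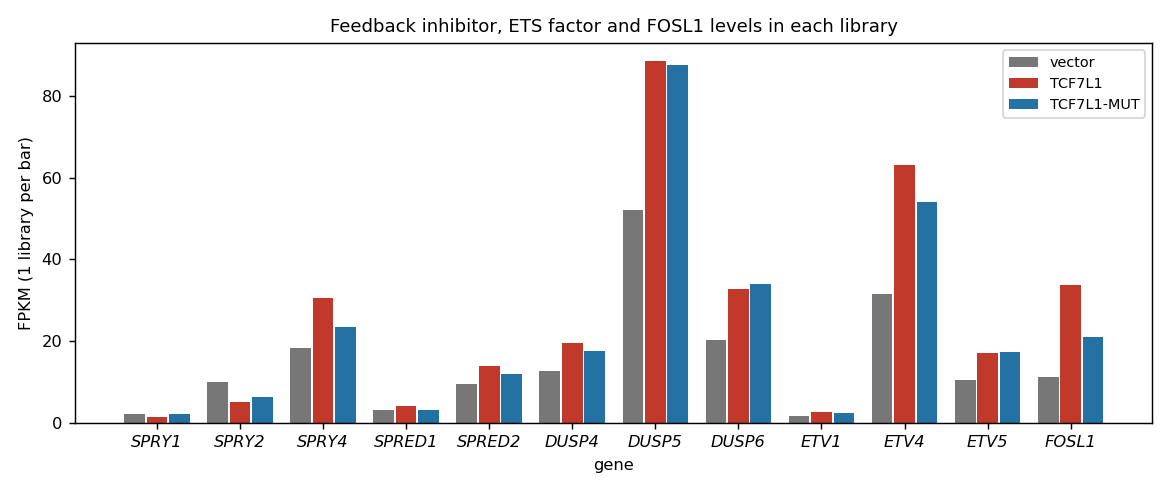
FPKM of feedback inhibitors, ETS factors and *FOSL1*, with 1 bar per library and no error bar because each condition has 1 library. *SPRY2* is highest with vector at 10.07 FPKM, whereas *SPRY4*, *SPRED2*, the DUSP genes, the ETV genes and *FOSL1* are lowest with vector.

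The 3 ETS factors, transcription factors that are induced by ERK and bind its target genes, were also higher than vector in both libraries. *ETV4* (17:43527844-43579620, minus strand) had 2877 counts with vector, 3920 with TCF7L1 and 3919 with TCF7L1-MUT, or 31.57, 63.11 and 54.03 FPKM. Its log2 fold change was 1.00 (0.93 to 1.07) with TCF7L1, just past the 2-fold limit, and 0.79 (0.72 to 0.86) with TCF7L1-MUT. The call depended on the scaling, as the value was 1.01 with DESeq2 size factors, 0.96 with TMM factors from all genes and 0.92 with library size only. *ETV5* had 1538, 1705 and 2023 counts, with 0.71 (0.61 to 0.81) and 0.74 (0.64 to 0.84), and *ETV1* had 410, 449 and 454 counts, with 0.69 (0.49 to 0.89) and 0.49 (0.30 to 0.69). Between the constructs, *ETV4* differed by 0.21 (0.15 to 0.28) and the interval of *ETV5* ran from -0.13 to 0.06.

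*FOSL1* (11:65892049-65900573, minus strand), an AP-1 subunit whose RNA and protein are sustained by ERK, had the largest difference among the ERK-induced members. It had 538 counts with vector, 1097 with TCF7L1 and 796 with TCF7L1-MUT, or 11.28, 33.76 and 20.98 FPKM. On the log2 scale the fold change was 1.58 (1.43 to 1.74) with TCF7L1, 0.91 (0.75 to 1.07) with TCF7L1-MUT and 0.67 (0.54 to 0.81) between the constructs, so the 3 libraries were apart by more than counting error. *IER3*, an early response gene that regulates apoptosis, had 1518, 1966 and 2141 counts, with 0.93 (0.83 to 1.03) and 0.84 (0.75 to 0.94). Of its exon bases, 32.6% are shared with *IER3-AS1* on the opposite strand, which had at most 6 counts in a library. *PHLDA1*, an early response gene of the pleckstrin homology-like family, had 3406, 3987 and 4144 counts, with 0.78 (0.72 to 0.85) and 0.63 (0.56 to 0.69). *EGR1*, an immediate early zinc finger factor, lay on the other side, with 2318, 1366 and 1680 counts and a log2 fold change of -0.21 (-0.30 to -0.11) and -0.12 (-0.21 to -0.03).

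**Figure D3:**
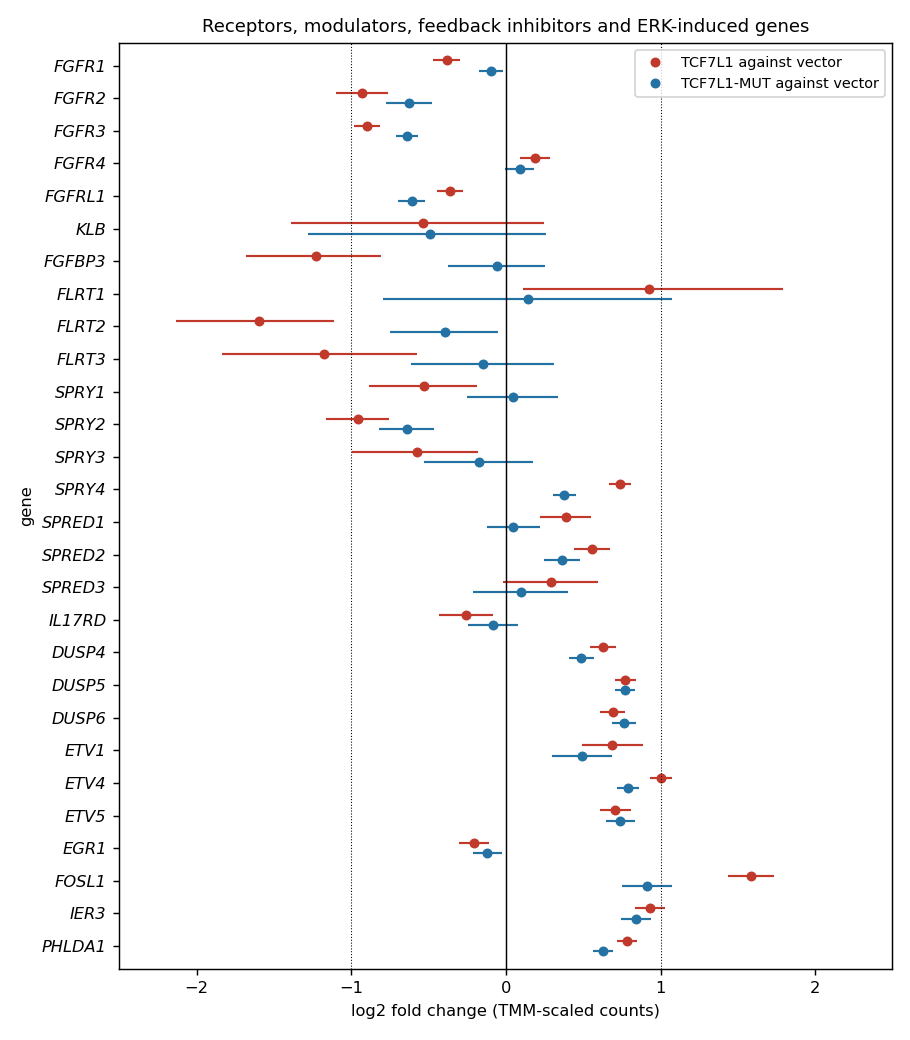
Log2 fold changes relative to vector of receptors, modulators, feedback inhibitors and ERK-induced genes in the TCF7L1 library (red) and the TCF7L1-MUT library (blue), with lines for the 95% counting interval and dotted lines at 2-fold. *FGFR2*, *FGFR3* and *SPRY2* lie left of 0 and the DUSP and ETV genes right of 0 with both constructs, whereas *FGFBP3* and *FLRT3* lie past -1 with TCF7L1 and have intervals that cross 0 with TCF7L1-MUT.

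*FGF19* was the most highly expressed ligand gene in each library, at 12.92 FPKM with vector, 21.05 with TCF7L1 and 22.66 with TCF7L1-MUT. It had 799, 887 and 1115 counts, for a log2 fold change of 0.71 (0.57 to 0.85) with TCF7L1 and 0.83 (0.69 to 0.96) with TCF7L1-MUT, and the interval between the constructs ran from -0.25 to 0.01. *FGF18*, a secreted ligand at 1.495, 2.602 and 2.78 FPKM, had 75, 89 and 111 counts, for 0.80 (0.34 to 1.27) and 0.91 (0.48 to 1.35). Both were higher than vector with each construct by less than 2-fold, and for both the interval between the constructs included 0. *FGF2*, a broadly acting ligand without a signal peptide, had 394, 326 and 359 counts, with 0.28 (0.07 to 0.50) and 0.21 (0.00 to 0.42), and 11.8% of its exon bases are shared with *NUDT6* on the opposite strand.

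The *FGF11* to *FGF14* genes encode intracellular FGF homologous factors, which are not secreted and bind voltage-gated sodium channels. Called with TCF7L1 against vector were *FGF12* (lower, as were 10.5% of all genes) and *FGF11* and *FGF13* (higher, as were 3.66%). *FGF12* (3:192139395-192767764, minus strand) had 113 counts with vector, 13 with TCF7L1 and 44 with TCF7L1-MUT. Its log2 fold change was -2.53 (-3.52 to -1.73) with TCF7L1 and -1.01 (-1.55 to -0.50) with TCF7L1-MUT, the latter just past the limit, and -1.52 (-2.56 to -0.63) between the constructs. *FGF13* (X:138614731-139222777, minus strand) lay on the other side, with 32, 89 and 69 counts and a log2 fold change of 2.01 (1.44 to 2.66) and 1.44 (0.83 to 2.11). *FGF11* had 20, 37 and 18 counts, with 1.42 (0.62 to 2.31) with TCF7L1 and 0.19 (-0.81 to 1.19) with TCF7L1-MUT. Of its exon bases, 82.1% are shared with an unnamed gene on the same strand that had 0 counts. How reads in shared bases were counted is not given in the sources used here, so these 0 counts do not show that the counts of *FGF11* are unaffected. *FGF14* had 0 counts in all libraries. The called genes of this subfamily thus differed in direction, all at levels below 1 FPKM.

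*FGF5*, a secreted ligand of the *FGF4* subfamily, had 68 counts with vector, 13 with TCF7L1 and 30 with TCF7L1-MUT, for a log2 fold change of -1.80 (-2.81 to -0.96) with TCF7L1 and -0.83 (-1.51 to -0.20) with TCF7L1-MUT. *FGF23*, the phosphate-regulating hormone of bone, had 34, 5 and 11 counts, with -2.12 (-3.92 to -0.85) and -1.25 (-2.41 to -0.27). Both were lower in each library than in vector, on few counts and with wide intervals. *FGF10*, a mesenchymal ligand of the *FGFR2* epithelial form, had 0 counts with vector, 3 with TCF7L1 and 15 with TCF7L1-MUT. Against a floor of 3 counts in the vector library it was at least 6.35-fold higher with TCF7L1-MUT, and it reached 10 counts through that library alone. Between the constructs its log2 fold change was -1.97 (-4.54 to -0.29), a ratio that rests on the 3 counts with TCF7L1, whereas no fold is given for TCF7L1 against vector because neither library was above the floor.

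The other ligand genes gave no difference that was detectable at this depth. *FGF9* had 146, 117 and 113 counts and *FGF22* had 84, 46 and 54 counts, and for both, each interval relative to vector included 0. The intervals relative to vector also included 0 for *FGF1*, *FGF7*, *FGF8*, *FGF17*, *FGF20* and *FGF21*, which had between 1 and 28 counts in a library. *FGF20* had 14, 4 and 7 counts and an interval of -3.31 to 0.42 with TCF7L1, so a difference in either direction within that range cannot be seen. *FGF3* had at most 1 count in a library and *FGF4*, *FGF6*, *FGF14* and *FGF16* had 0 counts in all 3. A ligand gene at 1 FPKM or more was found for 5 of 22 with vector and 4 of 22 with each construct.

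**Figure D4:**
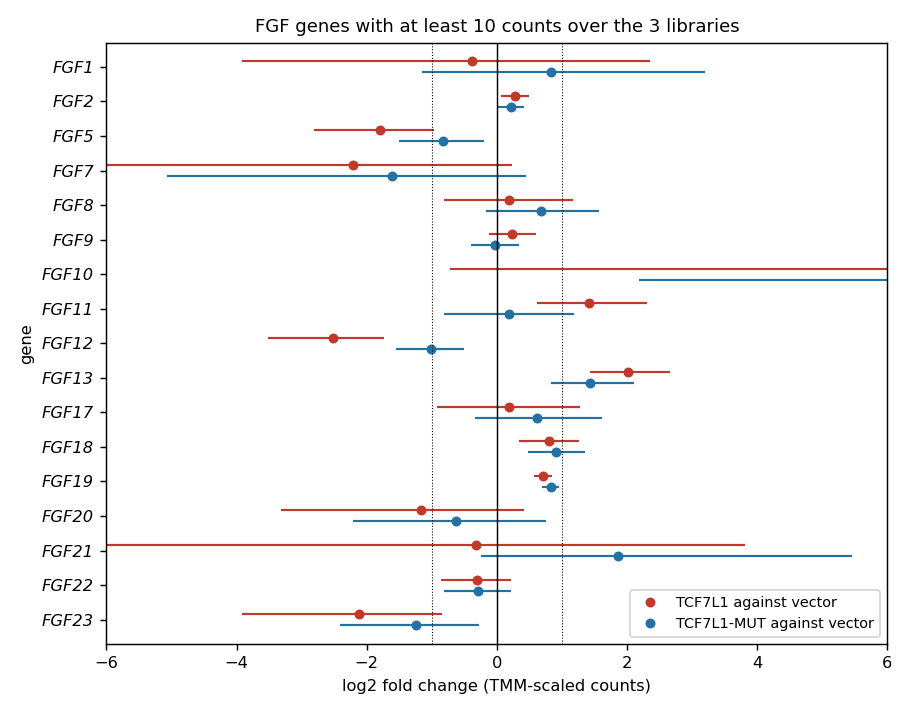
Log2 fold changes relative to vector of the 17 FGF genes with at least 10 counts over the 3 libraries, for the TCF7L1 library (red) and the TCF7L1-MUT library (blue), with lines for the 95% counting interval, cut at the plot's edge, and dotted lines at 2-fold. *FGF12* and *FGF23* lie left of 0 and *FGF13*, *FGF18* and *FGF19* right of 0 with both constructs, and *FGF10* has no point because the vector count is 0.

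By role, the median log2 fold change with TCF7L1 and with TCF7L1-MUT was -0.38 and -0.61 for the 5 receptors, -1.17 and -0.14 for the 5 co-receptors, carriers or modulators, 0.39 and 0.10 for the 11 feedback inhibitors, 0.71 and 0.74 for the 3 ETS factors, and 0.18 and 0.21 for the 17 ligand genes compared. For the 4 other ERK-induced genes it was 0.86 and 0.73. The summed level of the receptors was 100.3 FPKM with vector, 73.27 with TCF7L1 and 73.56 with TCF7L1-MUT. That of the feedback inhibitors was 133.2, 200.4 and 191.4 FPKM, and that of the ETS factors was 43.75, 82.88 and 73.72 FPKM. The other ERK-induced genes summed to 101.5, 171.9 and 151.7 FPKM. Summed receptor RNA was thus highest in the vector library, where the summed RNA of ETS factors, of feedback inhibitors and of other ERK-induced genes was lowest. Single members went the other way. *FGFR4* was lowest with vector, and the inhibitors *SPRY2*, *SPRY3* and *IL17RD* and the ERK-induced gene *EGR1* were highest with vector. The order vector, TCF7L1-MUT, TCF7L1 from high to low was seen for 17 of 45 members (37.8%, against 24.3% of all genes compared) and the reverse order for 16 (35.6%, against 22.6%); in both orders TCF7L1-MUT lies between the others. Members just outside the 2-fold limit with TCF7L1 were *SPRY2* (-0.96), *FGFR2* (-0.93), *FGFR3* (-0.90), *IER3* (0.93) and *FLRT1* (0.92), and those just inside were *ETV4* (1.00) and *FLRT3* (-1.17). With library size only, *SPRY2* (-1.05) and *FGFR2* (-1.02) passed the limit and *ETV4* (0.92) did not, so 8 genes were lower and 3 higher.

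The kinases and adaptors between receptor and nucleus stayed within 2-fold. Of 26 genes of the RAS-ERK core (adaptors, exchange factors and kinases such as *GRB2*, *SOS1* and *MAP2K1*), 0 were called in any of the 3 comparisons, in which between 1.98% and 10.5% of all genes were called in a given direction. With TCF7L1 their median log2 fold change was -0.06, with *ARAF* lowest at -0.97, and the median was -0.11 with TCF7L1-MUT. Smaller differences were present. With TCF7L1 the interval excluded 0 for 12 of the 26 (46.2%) on the lower side and 7 (26.9%) on the higher. The shares of all genes were 26% and 26.9%, and 29.2% and 47% of genes with at least 1000 counts. With TCF7L1-MUT these were 12 (46.2%) and 4 (15.4%), against 23.7% and 24.9% of all genes. Of 17 other immediate early or ERK-induced genes, *JUN* and *EPHA4* were called lower and *CCND1* and *DUSP2* higher with TCF7L1 (11.8% each, against 10.5% and 3.66% of all genes). *JUN*, an AP-1 subunit like *FOSL1*, had 10546 counts with vector, 1996 with TCF7L1 and 3708 with TCF7L1-MUT, a log2 fold change of -1.84 (-1.91 to -1.78) and -1.16 (-1.22 to -1.11). *EPHA4*, an ephrin receptor, had 418, 50 and 182 counts, with -2.50 and -0.85. *CCND1*, which encodes cyclin D1, had 4580, 6466 and 5265 counts, with 1.05 and 0.55, and *DUSP2*, another nuclear ERK phosphatase, had 102, 274 and 168 counts, with 1.98 and 1.06. The median of this list was 0.26 with TCF7L1 and 0.27 with TCF7L1-MUT.

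The EGF family feeds the same cascade. Of 13 genes, *EGF*, *ERBB4* and *LRIG1* were called lower and *EREG* and *NRG1* higher with TCF7L1 (23.1% and 15.4%, against 10.5% and 3.66% of all genes). *LRIG1* was lower and *NRG1* higher with TCF7L1-MUT (7.69% each, against 6.42% and 2.82%). *EREG*, an *EGFR* ligand, had 1399, 1932 and 1899 counts with vector, TCF7L1 and TCF7L1-MUT, with a log2 fold change of 1.02 and 0.79. *LRIG1*, a negative regulator of EGF receptors, had 1082, 207 and 421 counts, with -1.83 and -1.02. *ERBB4* had 92, 17 and 77 counts, with -1.85 with TCF7L1 and 0.09 with TCF7L1-MUT. The family's median was 0.14 and 0.09.

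**Figure D5:**
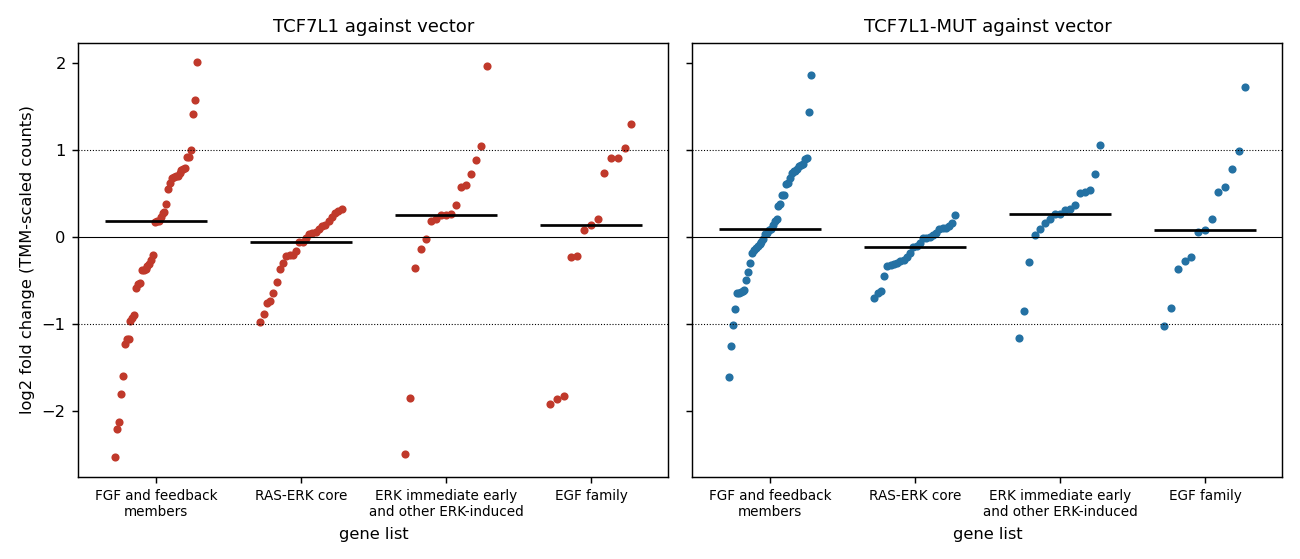
Log2 fold changes relative to vector for the TCF7L1 library (left) and the TCF7L1-MUT library (right), with 1 point per gene, a black bar at the median of each list, and dotted lines at 2-fold. *FGF10* has no point because the vector count is 0. All 26 genes of the RAS-ERK core lie within 2-fold of vector in both panels, whereas the 45 FGF and feedback genes, the ERK-induced genes and the EGF family have members beyond it on both sides.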

How the data were processed

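RNA was sequenced from 3 HCT116 lines (vector, TCF7L1 and TCF7L1-MUT), 1 library each. The authors mapped reads to GRCh38 with STAR 2.5 and deposited raw counts per gene made with HTSeq 0.6.1. FPKM values were also deposited by the authors and match the counts once scaled for gene length and an adjusted library size (100% of genes with at least 100 counts within 0.1%). The strand setting is not given in the sources used here. The column named for the DNA-binding domain was taken as TCF7L1-MUT.

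TMM factors were computed with edgeR 4.0.16 (R 4.3.3) on the 22902 genes with at least 10 counts over the 3 libraries. The resulting library sizes were 25228858 (vector), 17145909 (TCF7L1) and 19855699 (TCF7L1-MUT). Log2 fold changes used a prior count of 0.5, and 95% intervals were exact Clopper-Pearson intervals on the share of a gene's counts. As reads carry no molecular identifiers, intervals and the floor of 3 counts cover counting error only. With 1 library per condition no dispersion can be estimated and no p-value is given. A call required more than 2-fold and an interval off 0. The procedure was tested on simulated counts that held counting error only and 4-fold changes. That simulation does not cover variation between libraries of a condition or changes near the 2-fold limit.

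The members and lists were chosen with earlier results of these data known. Counts and folds are printed for members past 2-fold in any comparison, receptors, sprouty, SPRED, DUSP and ETV genes, and others by range or as examples. Overlapping exons came from GENCODE release 44 and promoters from RefSeq. Alternatives were DESeq2 1.42.0 size factors, library size only, TMM over all genes (added after the data were seen), other filters, a prior count of 2, thinning to the smallest library, FPKM with a pseudocount of 1 or 0.1, a 4-fold limit, and edgeR's exact test with an assumed dispersion of 0.04 or 0.16. The limit of 1000 counts for deep genes was also chosen after the data were seen. Calculations outside R used Python 3.11.15, numpy 2.4.6, pandas 2.3.3 and scipy 1.17.1.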

Additional observations from a re-analysis of the deposited data

How the results depend on the processing

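Among members whose 95% interval excluded 0, the direction of the log2 fold change was the same under all alternatives that gave a value, and the medians over members ran from 0.07 to 0.21 for TCF7L1 against vector, from 0.00 to 0.10 for TCF7L1-MUT against vector and from -0.10 to -0.04 in the direct comparison. Library size only lowered the median of all genes from -0.02 to -0.10 with TCF7L1. Counts of calls were less stable. The counts were 6 lower and 4 higher for TCF7L1 against vector, 2 and 2 for TCF7L1-MUT against vector, and 5 and 1 for TCF7L1 against TCF7L1-MUT. In that order they became 0 and 1, 0 and 0, and 0 and 0 on log2(FPKM + 1), which compresses low genes. With edgeR's exact test at an assumed dispersion of 0.04 they were 2 and 2, 0 and 1, and 0 and 0, and at 0.16 all were 0. At the 4-fold limit they were 2 and 1, 0 and 1, and 0 and 0. With log2(FPKM + 0.1), the TCF7L1 library had 4 lower and 3 higher than vector, without *FLRT2*, *FLRT3* and *ETV4*. The TCF7L1-MUT library had 0 lower, and the direct comparison had 3 lower and 0 higher. At a dispersion of 0.04, *FGF5*, *FGF23*, *FGFBP3* and *FLRT3* were no longer lower with TCF7L1 than with vector, whereas *FGF12* and *FLRT2* were. Of genes lower with TCF7L1-MUT, 1 was left with a prior count of 2 and 0 after thinning, and of genes higher 1 was left with a filter of 1 CPM. *ETV4* also lost its call after thinning (0.98) and with FPKM. The cause of these losses was not tested beyond the settings' own construction. Over all genes, 2394 were lower and 838 higher with TCF7L1, against 907 and 125 at a dispersion of 0.04, 24 and 9 at 0.16, and 551 and 180 on log2(FPKM + 1). With TCF7L1-MUT, 1470 and 645 became 159 and 30 at 0.04, 4 and 4 at 0.16, and 232 and 72 on log2(FPKM + 1). In the direct comparison, 1031 and 453 became 115 and 30, 1 and 2, and 127 and 72. No paired analysis was possible because each condition has 1 library. No library could be left out for the same reason, and low ligand genes are limited by depth.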
